A study of Mus musculus with 4 samples.

Results

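Stat5a, Stat5b and 8 genes that STAT5 is known to induce were followed in mouse leukemia stem cells with and without Hif1a. The other members were the feedback inhibitors Cish, Socs1, Socs2 and Socs3, the kinases Pim1 and Pim2, the cytokine gene Osm and the survival gene Bcl2l1. They were picked by gene symbol, with earlier results of these data known, and all 10 were measured, as 10 of 19938 genes in the table. Each gene was represented by its probe set with the highest mean, and Socs2 and Socs3 had a second probe set, which makes 12 sets in all. Values are log2 expression after RMA, a procedure that corrects background, equalises the arrays and summarises the probes of a set. A step of 1 on this scale is a doubling, and levels of different probe sets are not compared with each other.

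The cells came from a transplantation model of chronic myeloid leukemia. Donor marrow, taken after 5-fluorouracil treatment, was infected with a retrovirus carrying BCR-ABL and GFP and given to C57BL/6 (B6) mice. The WT group had C57BL/6 (B6) donors and the other group Hif1a-/- donors, with 2 arrays each. Marrow was collected 14 days after transplantation and sorted for GFP+Lin-c-Kit+Sca-1+ cells, called leukemia stem cells (LSCs), and the labels give an age of 8 weeks. Both groups therefore express BCR-ABL in a host with intact Hif1a, and no sample without BCR-ABL was analysed here. The labels do not say which exons of Hif1a were lost, by which promoter or Cre, whether 1 animal or a pool gave each sample, or whether the biological replicates came from separate animals. The p-values then measure only the spread between these samples.

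STAT5A and STAT5B are transcription factors that wait in the cytoplasm until a kinase, either a JAK bound to a cytokine receptor or BCR-ABL itself, phosphorylates them. They then pair up, enter the nucleus and bind DNA, and among the genes they induce are inhibitors that damp the same pathway. In BCR-ABL leukemia STAT5 is phosphorylated without cytokine and is known to be needed for the disease. The arrays measure RNA, so the phosphorylation of STAT5 was not measured.

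The columns had medians of 8.53 to 8.57 over all genes. Hif1a itself read 11.34 and 11.50 in WT and 11.25 and 11.39 in Hif1a-/- cells, and the groups overlapped. Such a set may go on reading the rest of a transcript after some exons are deleted, and so it says little about the genotype. Of the genes behind the sort, Kit read 10.32 and 11.07 in WT and 10.95 and 10.61 in Hif1a-/- cells, while Ly6a, the gene of Sca-1, was not analysed here. Transcripts of mature granulocytes were present in spite of the lineage depletion, with Ltf, for example, between 11.47 and 13.52. The WT arrays correlated at 0.981 over all genes and the Hif1a-/- arrays at 0.995, as a description over genes that share each array.

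The feedback targets leaned toward lower values without Hif1a, but no member passed the test. That lean depended on WT replicate 1, without which Socs1, Socs3, Pim1 and Osm averaged higher in Hif1a-/- cells. Groups did not overlap in 2 of 10 members (Pim2 and Cish), a share below the 24.8% of all genes with such groups in either direction. Of the 8 targets, 7 averaged lower in Hif1a-/- cells and 1 higher, while Stat5a and Stat5b both had a slightly higher mean. With limma, a linear model whose variance is shared across genes, 0 of 10 members passed at an adjusted p under 0.05, and 0% of all genes did. The smallest adjusted limma p over all genes was 0.239, and that of every member was 0.999. At an unadjusted limma p under 0.05 there were 334 genes, or 1.68% of all, and 1 of 10 members, Pim2. A fit of 3 arrays assumes that the lone array of a genotype varies like the other group, and it does not measure the spread of that genotype. In fits of 3 arrays the members called were Socs2 without WT replicate 1, and Socs1, Pim2 and Osm without WT replicate 2, while 349 genes (1.75%) and 1442 genes (7.23%) were called in all.

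The Hif1a-/- arrays were both under the WT arrays in 2 of 10 members (Cish and Pim2), where 9.05% of all genes did. They lay above both WT arrays in 0 of 10, where 15.7% of all genes did. Lower means were found in 7 of 10 members and in 38.6% of all genes, and the median difference was -0.11 over the members and 0.03 over all genes. Without WT replicate 1 the count of members with a lower mean dropped to 3 of 10, and without each of the other arrays it was between 6 and 9. With 2 arrays a group, the smallest two-sided p of an exact permutation test is 0.333, which was the value for Cish and for Pim2. A difference of at least 0.5 in size was found in 2 of 10 members (Pim2 and Socs2), where 0.893% of all genes had one.

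**Figure D1:**
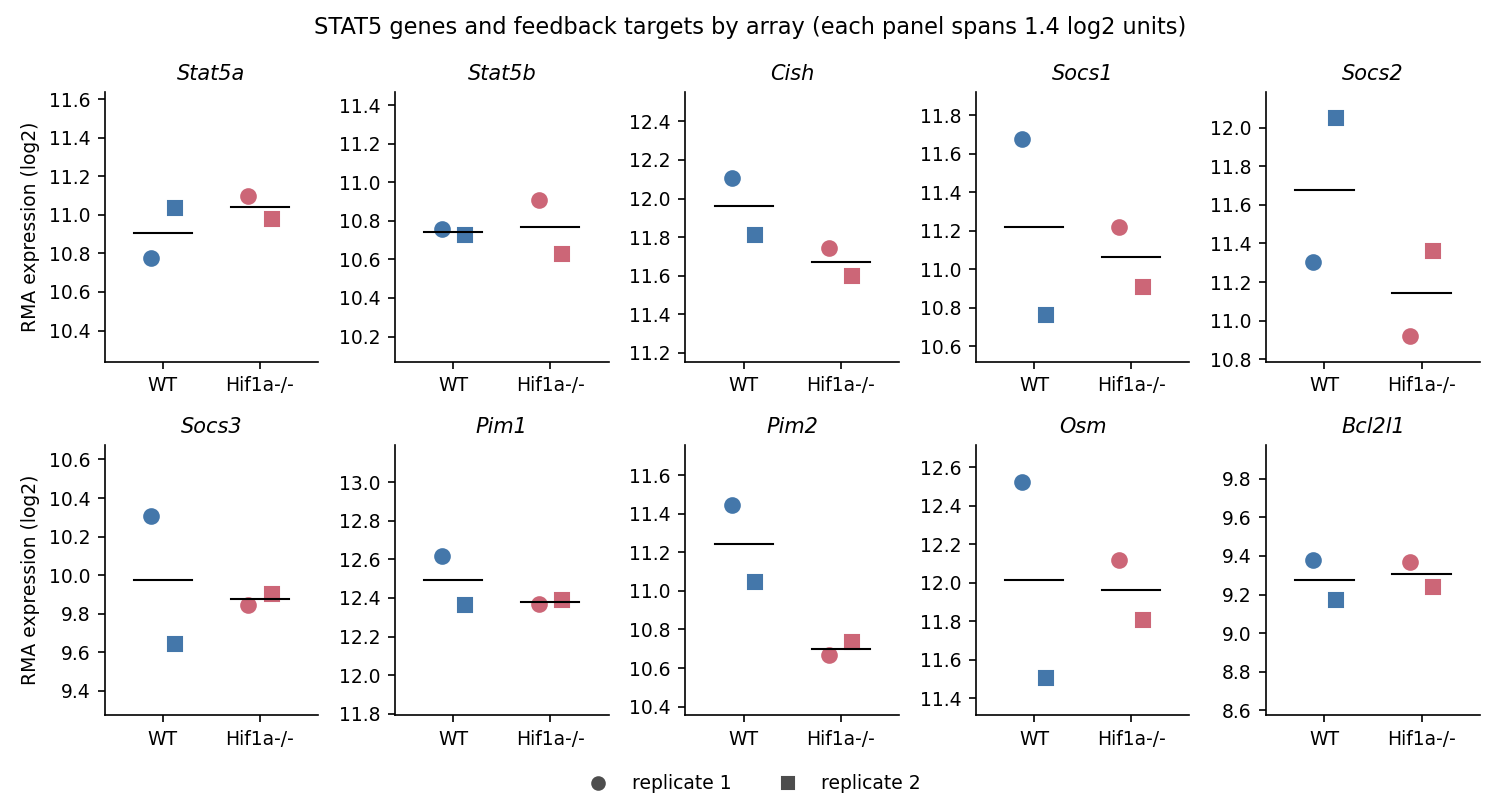
RMA expression (log2) of the 10 members on each array, with circles for replicate 1, squares for replicate 2 and black lines for the group means. Every panel spans 1.4 log2 units. The Hif1a-/- arrays lie below both WT arrays in the Cish and Pim2 panels, and the WT arrays are widest apart for Osm, Socs1, Socs2 and Socs3.

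The genes of the transcription factors themselves showed no detectable difference. Stat5a, the paralog first known from the mammary gland, read 10.77 and 11.04 in WT and 11.10 and 10.98 in Hif1a-/- cells. The groups overlapped, the difference was 0.13 ± 0.14 (SE), and its 95% interval ran from -0.21 to 0.48. Without WT replicate 1 it was 0.0027. Stat5b, its neighbour on chromosome 11 and near copy, read 10.76 and 10.72 in WT and 10.91 and 10.63 in Hif1a-/- cells, so the Hif1a-/- arrays lay on both sides of the WT arrays. Its difference was 0.03 ± 0.14 (SE), with a 95% interval from -0.32 to 0.37, and it was -0.11 without Hif1a-/- replicate 1. These intervals leave room for changes in either direction. The unadjusted limma p was 0.387 for Stat5a and 0.854 for Stat5b. Close paralogs can share signal on an array, and to what extent these probe sets do was not tested.

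Among the feedback inhibitors, Cish is the classical STAT5 target, whose protein occupies receptor sites that STAT5 would bind. RefSeq promoters were matched for 8 of the members, with 13 windows of 250 bases before and 50 after an annotated start. The palindrome TTCNNNGAA, the core that STAT factors recognise and the same on both strands, was found in 2 of these windows, those of Cish and Socs3. It was present in 8.3% of all 32851 RefSeq windows of that length. Both are printed 5′ to 3′ on the gene's strand, with that palindrome in capitals, because they are the members whose window holds it. The Cish stretch holds 270 bases and the Socs3 stretch 250.

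Cish, GRCm38.p6 chr9:107296409-107296678, plus strand: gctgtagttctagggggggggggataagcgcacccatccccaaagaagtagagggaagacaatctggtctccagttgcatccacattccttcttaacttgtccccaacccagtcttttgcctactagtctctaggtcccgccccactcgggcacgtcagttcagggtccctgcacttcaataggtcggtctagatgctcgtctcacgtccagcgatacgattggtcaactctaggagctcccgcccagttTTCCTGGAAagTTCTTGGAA

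Socs3, GRCm38.p6 chr11:117969367-117969616, minus strand: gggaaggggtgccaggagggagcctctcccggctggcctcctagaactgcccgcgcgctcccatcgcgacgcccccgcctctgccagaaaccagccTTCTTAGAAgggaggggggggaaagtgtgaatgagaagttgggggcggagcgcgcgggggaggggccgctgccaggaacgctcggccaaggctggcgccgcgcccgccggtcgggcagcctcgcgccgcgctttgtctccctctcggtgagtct

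In Cish the matches covered bases 1 to 9 and 12 to 20 from the annotated start, 2 copies side by side, and in Socs3 the match lay from -154 to -146. A match is a run of letters and does not show binding, and windows without one may have sites elsewhere.

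Cish read 12.11 and 11.81 in WT and 11.74 and 11.60 in Hif1a-/- cells. Both Hif1a-/- arrays were lower than both WT arrays, and the nearest values were WT replicate 2 and Hif1a-/- replicate 1. The difference was -0.29 ± 0.15 (SE), or 1.22-fold, with a 95% interval from -0.65 to 0.07, and the unadjusted limma p was 0.0981. That is about the size of the gap between the WT arrays, -0.30 for replicate 2 minus replicate 1. The difference was -0.14 without WT replicate 1 and -0.44 without WT replicate 2.

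Socs2, whose protein is a brake on growth hormone and other STAT5-activating receptors, had a large but uneven difference. It read 11.30 and 12.05 in WT and 10.92 and 11.36 in Hif1a-/- cells. WT replicate 2 stood highest and Hif1a-/- replicate 1 lowest, while WT replicate 1 and Hif1a-/- replicate 2 overlapped. The difference was -0.53 ± 0.27 (SE), or 1.45-fold, with a 95% interval from -1.18 to 0.11, and the unadjusted limma p was 0.0914. Its size was 141st among all genes, yet it was smaller than the 1.68-fold gap between the WT arrays. It was -0.91 without WT replicate 1 and -0.16 without WT replicate 2. The second Socs2 probe set read 9.88 and 10.11 in WT and 9.65 and 9.67 in Hif1a-/- cells, with groups that did not overlap. It differed by -0.34 ± 0.14 (SE), with an unadjusted limma p of 0.0506 in the fit over all probe sets, and by -0.22 without WT replicate 2. The difference of -0.34 was larger in size than the gap between the WT arrays in this set, 0.23. Both sets thus read lower, and the sizes differed.

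Socs1, an inhibitor that binds JAK kinases directly and is also induced by interferon, separated the WT arrays and not the genotypes. It read 11.68 and 10.76 in WT and 11.22 and 10.91 in Hif1a-/- cells. Both Hif1a-/- arrays lay between the WT arrays, which were 1.89-fold apart. The difference was -0.16 ± 0.29 (SE), with a 95% interval from -0.87 to 0.55. It was 0.30 without WT replicate 1 and -0.62 without WT replicate 2.

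Socs3, which shuts off receptors of the gp130 and G-CSF type and responds to STAT3 as well, showed the same arrangement. It read 10.31 and 9.64 in WT and 9.85 and 9.90 in Hif1a-/- cells, again with both Hif1a-/- arrays between the WT arrays. The difference was -0.10 ± 0.22 (SE), with a 95% interval from -0.63 to 0.43, and it was 0.23 without WT replicate 1 and -0.43 without WT replicate 2. Its second probe set read 8.84 and 8.29 in WT and 8.23 and 8.34 in Hif1a-/- cells and differed by -0.28 ± 0.21 (SE), or by -0.011 without WT replicate 1. In that set, too, WT replicate 1 stood above the other 3 arrays.

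**Figure D2:**
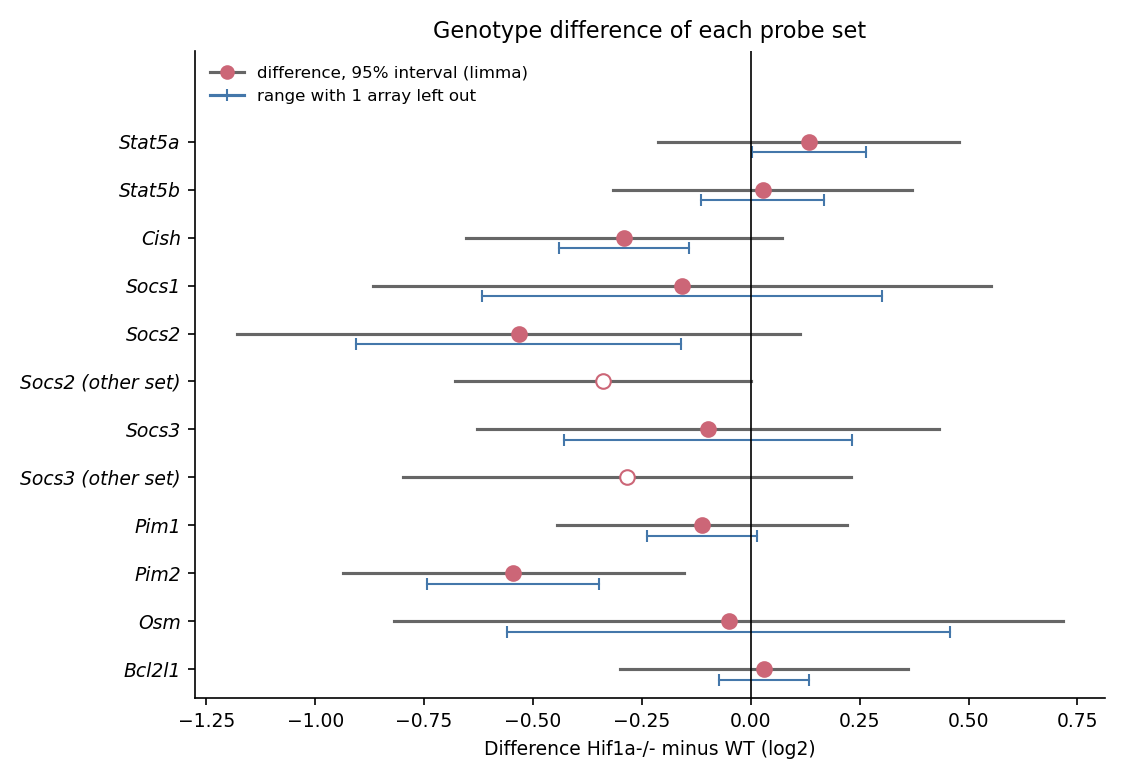
Difference Hif1a-/- minus WT (log2) of each probe set, with grey bars for limma's 95% interval and, for the sets that represent a gene, blue bars for the range when each array is left out. Filled points are the sets that represent a gene and open points the second sets of Socs2 and Socs3. The interval of Pim2 alone excludes 0, and the blue bars of Stat5a, Cish, Socs2 and Pim2 stay on 1 side of it.

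The PIM kinases are made active by their abundance, so STAT5 controls them through transcription, and they support survival and protein synthesis. Pim2 had the largest difference of the members. Its promoter window held no TTCNNNGAA. It held 2 matches to GCGTG, which with ACGTG makes up the core of the element that HIF-1 binds, and it is printed here because it belongs to the member with the largest difference in a comparison of Hif1a genotypes. The core is in capitals on whichever strand it lies.

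Pim2, GRCm38.p6 chrX:7878056-7878305, plus strand: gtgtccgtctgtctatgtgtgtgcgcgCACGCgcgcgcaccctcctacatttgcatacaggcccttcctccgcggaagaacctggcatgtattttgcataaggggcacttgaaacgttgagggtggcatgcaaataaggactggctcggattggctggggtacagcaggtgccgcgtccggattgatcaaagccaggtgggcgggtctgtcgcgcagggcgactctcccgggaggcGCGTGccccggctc

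The matches lay from -223 to -219 and from -14 to -10. ACGTG or GCGTG, searched on both strands, was found in 43.8% of all RefSeq windows and in 6 of the 13 windows of the members, those of Bcl2l1, Cish, Pim1, Pim2 and Stat5b, a share near that of all windows. In Cish the matches lay from -99 to -95 and from -47 to -43.

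Pim2 read 11.44 and 11.05 in WT and 10.67 and 10.73 in Hif1a-/- cells. Both Hif1a-/- arrays were close together and below both WT arrays. The difference was -0.55 ± 0.16 (SE), or 1.46-fold, with a 95% interval from -0.94 to -0.15. The unadjusted limma p of 0.0139 was the 94th smallest of all genes, and the adjusted p was 0.999. By the set that represents each gene, Pim2 was the only member whose genotype difference exceeded the gap between its WT arrays, which was -0.39. The difference was -0.35 without WT replicate 1 and -0.74 without WT replicate 2.

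Pim1, the better known STAT5 target of the pair, read 12.62 and 12.37 in WT and 12.37 and 12.39 in Hif1a-/- cells. WT replicate 1 was higher than the other 3 arrays, which were nearly level. The difference was -0.11 ± 0.14 (SE), with a 95% interval from -0.45 to 0.22, and it was 0.014 without WT replicate 1. The difference between the responses of Pim1 and Pim2 was not tested.

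Osm encodes oncostatin M, a cytokine of the IL-6 family that myeloid cells make when STAT5 is active. It read 12.52 and 11.50 in WT and 12.12 and 11.81 in Hif1a-/- cells. The WT arrays were 2.03-fold apart, the widest gap among the members, and both Hif1a-/- arrays lay between them. The difference was -0.05 ± 0.32 (SE), with a 95% interval from -0.82 to 0.72, so a change of 1.5-fold in either direction was not detectable here. It was 0.46 without WT replicate 1 and -0.56 without WT replicate 2.

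Bcl2l1 encodes BCL-XL, which protects mitochondria from the proteins that start apoptosis. It read 9.38 and 9.17 in WT and 9.37 and 9.24 in Hif1a-/- cells, with both Hif1a-/- arrays between the WT arrays. The difference was 0.03 ± 0.14 (SE), with a 95% interval from -0.30 to 0.36, and it was -0.073 without WT replicate 2 and -0.037 without Hif1a-/- replicate 1. The probe set covers the gene as a whole and does not separate its long and short splice forms.

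For most members the WT arrays differed more than the genotypes did. By the set that represents each gene, the WT arrays were further apart than the genotype means in 9 of 10 members, beside 75.5% of all genes. Both Hif1a-/- arrays lay between the WT arrays in 5 of 10 members (Bcl2l1, Osm, Pim1, Socs1 and Socs3), where 32.9% of all genes did. WT replicate 2 was below WT replicate 1 in 8 of 10 members, against 54.5% of all genes, and Socs2 and Stat5a were the members that went the other way. The WT arrays differed by at least 0.5 in 4 of 10 members (Osm, Socs1, Socs2 and Socs3), against 11.6% of all genes. The median size of the gap was 0.35 between the WT arrays and 0.14 between the Hif1a-/- arrays, beside 0.19 and 0.11 over all genes.

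**Figure D3:**
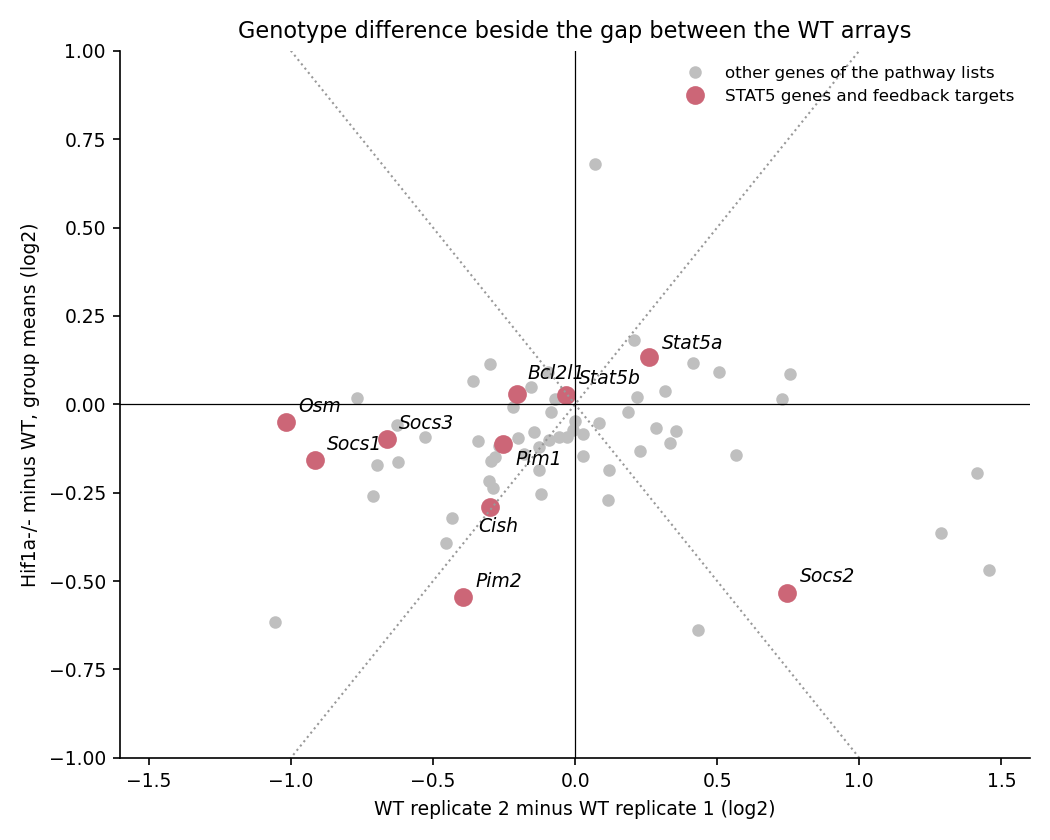
WT replicate 2 minus WT replicate 1 (log2, horizontal) against the difference Hif1a-/- minus WT of the group means (log2, vertical), with the members in red and the other genes of the pathway lists in grey. On the dotted diagonals both are equal in size. Pim2 lies outside the sideways wedges, Osm and Socs1 lie far to the left near 0 on the vertical axis, and Socs2 lies to the right.

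Marker lists differed between the WT arrays as well. The mean of 7 measured interferon response genes, of 9 listed, was 11.19 and 9.71 in WT and 10.48 and 10.28 in Hif1a-/- cells, and in 7 of 7 both Hif1a-/- arrays lay between the WT arrays. The mean of 8 granulocyte genes was 13.35 and 12.24 in WT and 12.96 and 12.77 in Hif1a-/- cells, with 7 of 8 between the WT arrays. Mpo and Elane ran against their list, at 12.97 and 13.43 on WT replicate 1 and at 13.67 and 13.77 on WT replicate 2. In both list means WT replicate 1 was highest and WT replicate 2 lowest, as they were for Osm, Socs1, Socs3, Pim1 and Bcl2l1. The mean of 5 stem and progenitor genes ran the other way, at 8.96 and 9.82 in WT and 9.16 and 9.43 in Hif1a-/- cells, and Socs2 also read higher on WT replicate 2. Of these 5 genes only Procr read lower on WT replicate 2, at 8.19 and 8.00 in WT. Cd34 had the widest gap between the WT arrays, 1.98.

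In the other marker lists, the array means of mast cell and erythroid genes did not overlap between genotypes, and those of the remaining lists did. All 6 mast cell genes averaged lower in Hif1a-/- cells, beside 38.6% of all genes. In 3 of them both Hif1a-/- arrays were below both WT arrays, beside 9.05% of all genes. Cma1 (-0.85), Fcer1a (-0.12) and Ms4a2 (-0.17) had groups that overlapped. The list means were 11.16 and 11.18 in WT and 10.32 and 10.82 in Hif1a-/- cells. None of the genes was near the lowest values of the arrays. All 4 measured erythroid genes, of 6 listed, had a higher mean, and in 3 both Hif1a-/- arrays were above both WT arrays. Of all genes, 38.6% had a lower mean and 15.7% had both Hif1a-/- arrays above. Slc4a1, at 0.12, had groups that overlapped. The erythroid list means were 10.36 and 10.13 in WT and 10.86 and 10.60 in Hif1a-/- cells. The 2 basophil genes differed by -0.09 (Mcpt8) and -0.02 (Prss34). The 6 genes of monocytes and macrophages had list means of 9.81 and 9.92 in WT and 9.35 and 9.82 in Hif1a-/- cells. Those of megakaryocytes were 9.49 and 9.99 in WT and 9.79 and 10.19 in Hif1a-/- cells, and those of lymphocytes 8.22 and 7.72 against 7.89 and 7.51. The part of any of these lists in the members' values was not tested. In sorted bulk samples, fewer cells of a type and less RNA per cell cannot be told apart.

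**Figure D4:**
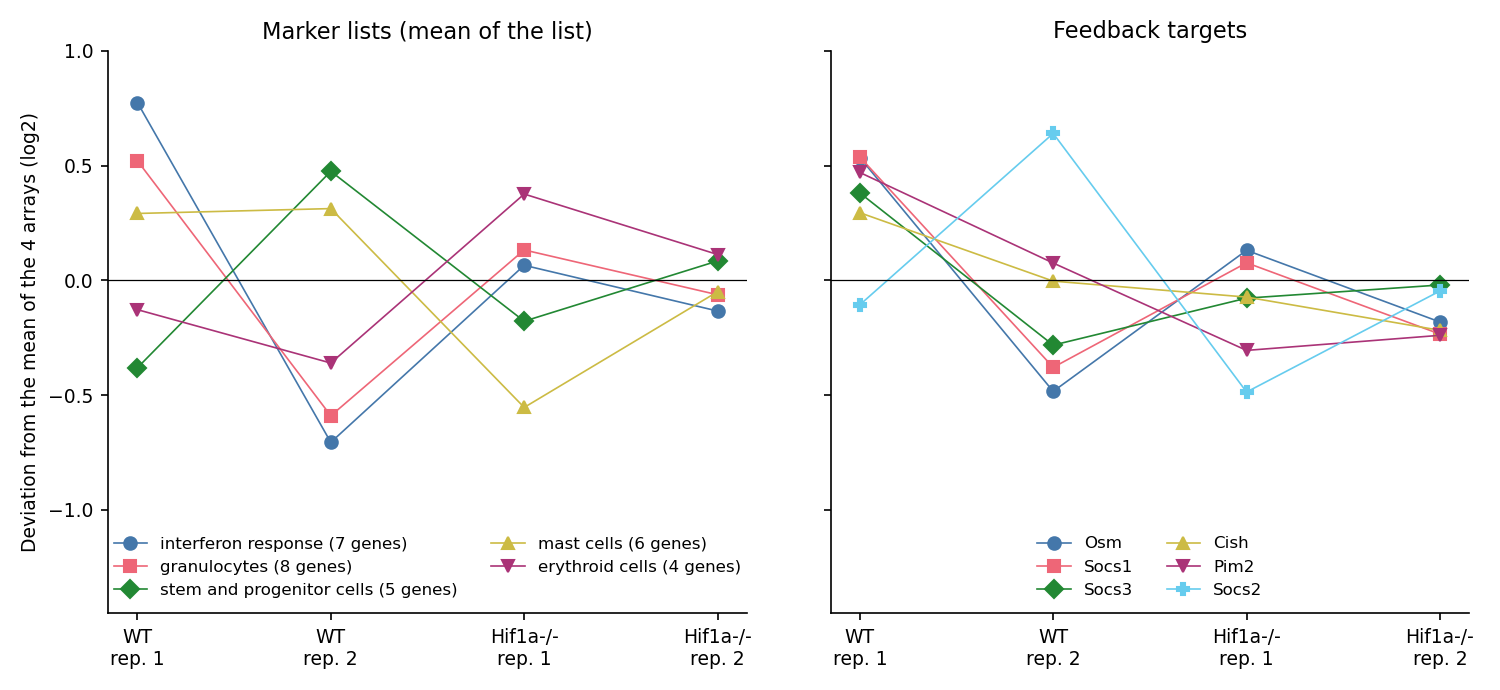
Deviation of each array from the mean of the 4 arrays (log2), for the mean of 5 marker lists on the left and for 6 feedback targets on the right, with thin lines that only join the values of a list or gene. The means of the interferon and granulocyte lists, and Osm, Socs1 and Socs3, are highest on WT replicate 1 and lowest on WT replicate 2. Pim2 and the mast cell list are lower on both Hif1a-/- arrays than on both WT arrays.

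The wider JAK and STAT pathway was read through 63 other genes in 5 lists, of which 56 were measured. In these lists 0 of 56 genes passed limma's adjusted p under 0.05, and 2 of 56 had an unadjusted p under 0.05, 1 in each direction (Stat4 lower, Epor higher). Without WT replicate 1, 4 of the 56 were called, beside 1.75% of all genes, and without WT replicate 2, 7 were, beside 7.23%. Lower means were found in 42 of 56 and higher ones in 14, beside the 38.6% of all genes with a lower mean, and the median difference was -0.09. The Hif1a-/- arrays were both under the WT arrays in 17 of 56, beside 9.05% of all genes, and both over them in 2, beside 15.7%. The count of lower means was between 38 and 46 when each array was left out. No test of the lists as sets was made.

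The receptors that feed STAT5 went both ways, with 8 of 13 measured genes lower and 5 higher. A lower mean was found in 38.6% of all genes. Epor, the erythropoietin receptor, read 9.80 and 9.87 in WT and 10.79 and 10.24 in Hif1a-/- cells, a difference of 0.68 ± 0.19 (SE) with an unadjusted limma p of 0.0115, or 0.41 without Hif1a-/- replicate 1. It stood beside the erythroid markers above, which were also higher. Il7r, the receptor chain for interleukin 7, read 10.70 and 9.65 in WT and 9.53 and 9.58 in Hif1a-/- cells. The difference of -0.62 ± 0.32 (SE) came mostly from WT replicate 1, without which it was -0.088. Csf3r, the G-CSF receptor, differed by -0.24 ± 0.15 (SE), or by -0.093 without WT replicate 1.

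Of 12 measured kinases and adaptors, 10 had a lower mean, beside 38.6% of all genes, and 2 a higher one. The differences ran from -0.26 to 0.07. Jak2, the kinase bound to the erythropoietin and interleukin 3 receptors and named after its values were seen, read 11.78 and 11.07 in WT and 11.21 and 11.11 in Hif1a-/- cells, with both Hif1a-/- arrays between the WT arrays. By the naming rule, the differences were -0.15 for Src, a cytoplasmic tyrosine kinase, -0.10 for Jak1, a kinase of interferon and interleukin receptors, and -0.09 for Stam, an adaptor in endosomal sorting. They shrank to -0.048 for Src without Hif1a-/- replicate 1, -0.055 for Jak1 without WT replicate 1 and -0.040 for Stam without Hif1a-/- replicate 2.

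All 4 other STAT genes measured averaged lower in Hif1a-/- cells, beside 38.6% of all genes. The sign was opposite to that of Stat5a and Stat5b, a contrast that was not tested. Stat4, which carries interleukin 12 signals, read 10.46 and 10.89 in WT and 9.83 and 10.24 in Hif1a-/- cells, with groups that did not overlap. The difference was -0.64 ± 0.20 (SE) (unadjusted limma p 0.0181), or -0.42 without WT replicate 2. Stat3, which lies next to Stat5a on chromosome 11, read 11.27 and 11.15 in WT and 11.05 and 11.00 in Hif1a-/- cells, a difference of -0.19 ± 0.12 (SE), or -0.12 without WT replicate 1.

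Among 16 other inhibitors, 12 had a lower mean, beside 38.6% of all genes, and 4 a higher one. In 6 both Hif1a-/- arrays were below both WT arrays, beside 9.05% of all genes. Ptprc, the gene of the phosphatase CD45 that can dephosphorylate JAKs, read 11.60 and 11.14 in WT and 10.97 and 10.98 in Hif1a-/- cells. It differed by -0.39 ± 0.17 (SE), or by -0.16 without WT replicate 1. Ptpn2, a phosphatase that acts on JAKs and nuclear STATs, read 10.78 and 10.66 in WT and 10.48 and 10.45 in Hif1a-/- cells, a difference of -0.25 ± 0.12 (SE) with an unadjusted limma p of 0.083. Pias1, a SUMO ligase that restrains STAT factors, differed by -0.18 ± 0.12 (SE).

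Of 11 further genes reported as STAT5 targets, 8 had a lower mean, beside 38.6% of all genes, and 3 a higher one. The median difference was -0.14. The naming rule gave Igf1, a growth factor gene, with -0.27, Bcl6, a repressor known to be held down by STAT5, with -0.22, and Ccnd3, a D-type cyclin, with -0.16. Without the array that carried most of it, the difference was -0.11 for Igf1 (Hif1a-/- replicate 1), -0.065 for Bcl6 and -0.011 for Ccnd3 (WT replicate 1 in both). Cyclin D2 and MYC, named after their values were seen, are often cited as STAT5-dependent, and their genes differed by 0.02 (Ccnd2) and 0.09 (Myc).

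**Figure D5:**
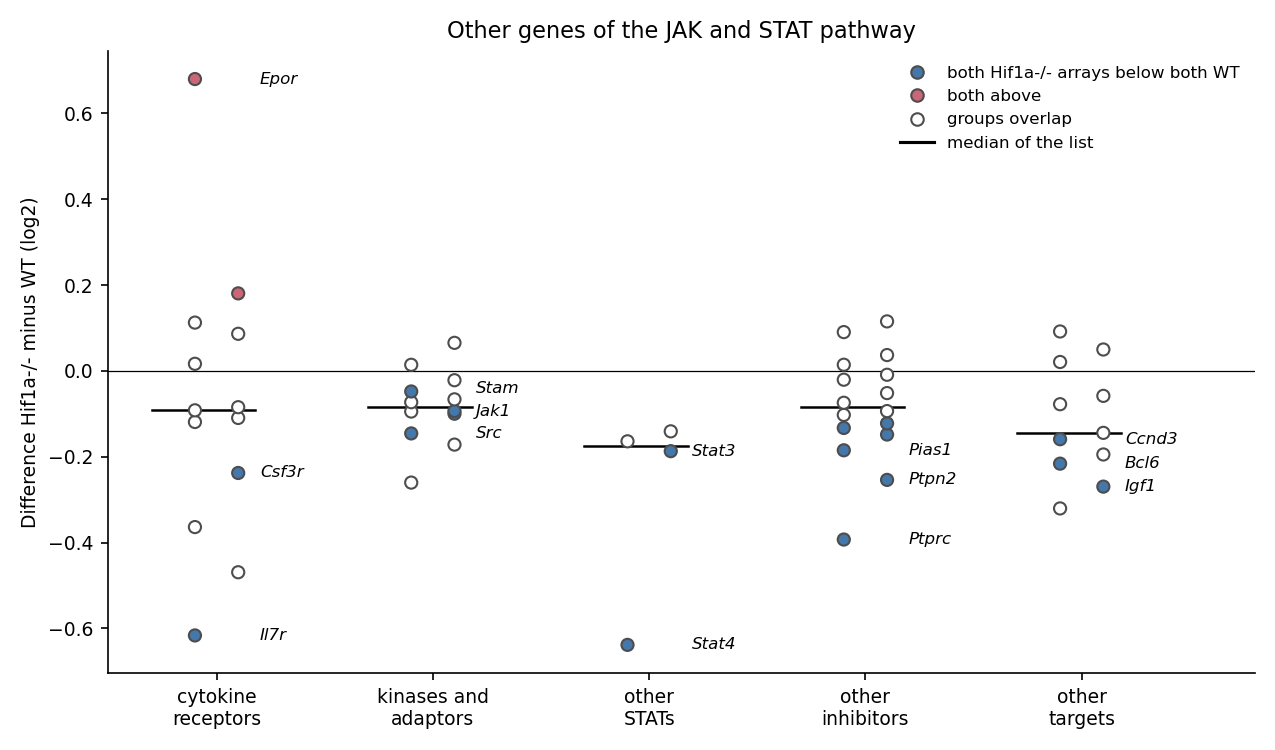
Difference Hif1a-/- minus WT (log2) of each measured gene in the 5 pathway lists, with a black line for the median of each list. Blue points have both Hif1a-/- arrays below both WT arrays, red points both above, and open points overlap. The medians of all 5 lists are below 0, Epor is at the top and Stat4 and Il7r are at the bottom.

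The genes closest in pattern were taken for the 2 members with the largest differences, by the Euclidean distance over 4 arrays between values centred on each gene's mean, among 17053 named genes. For Pim2 they were Mpeg1, a perforin-like gene of phagocytes, at a distance of 0.0095, Mindy2, a deubiquitinase, at 0.056, and Irf5, a transcription factor of innate immunity, at 0.079. Mpeg1 read 10.50 and 10.10 in WT and 9.72 and 9.80 in Hif1a-/- cells, a difference of -0.54. For Socs2 they were Cd180, a Toll-like receptor relative, at 0.060, Tlr7, a sensor of RNA, at 0.065, and Hs6st2, a heparan sulfate sulfotransferase, at 0.079. Cd180 differed by -0.52, as did Tlr7. The member nearest to Pim2 was Cish, at 0.302, and the one nearest to Socs2 was Stat5a at 0.848. With 4 arrays such distances describe these samples only.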

How the data were processed

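For 4 arrays and 35556 probe sets, the authors deposited log2 values, which Affymetrix Expression Console 1.1 and RMA produced, per the submitters' processing notes; other settings are not given in the sources. The values ran from about 3.07 to 14.71. RMA draws small values together, which understates differences of dim genes, and 4 arrays limit the precision. No detection calls were used, and 0 columns were left unused.

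Probe sets were named through GEO's platform annotation: 21789 had 1 symbol, 1621 several and 12146 were unnamed here. RefSeq (GRCm38.p6) held all 12 member sets under the same symbol, and its promoter table held 8 members. The test was limma 3.58.1 (lmFit, eBayes; R 4.3.3) on genotype alone (2 residual and 4.46 prior degrees of freedom), followed by Benjamini-Hochberg adjustment over 19938 genes; limma is the tool behind every adjusted p. The procedure was run on simulated data with independent genes and the same variance in both groups. That setting does not show how it behaves on these arrays. The members and gene lists were chosen with earlier results of these data known. Named genes were the members, up to 3 genes of each pathway list with the smallest p and groups that did not overlap, and 3 nearest genes for each of 2 members; for any other gene the text says that its values were known. Alternatives were a filter on the lower part of expression, a second quantile normalization, centred medians, variance trends, array weights, other probe sets, the replicate number as a block, a threshold of 0.1 and each array left out. Leaving arrays out of the count of lower pathway genes was added after the data had been seen.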

Additional observations from a re-analysis of the deposited data

How the results depend on the processing

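The members' signs depended on single arrays of either genotype, and the calls of members on single WT arrays. The count of genes called by limma was 0, as it was with the expression filter, second quantile normalization, centred medians, array weights, other probe sets or a threshold of 0.1; it was 1 with a variance trend and 2 with a robust one, and 2 to 1442 when an array was left out. Such a fit assumes that the lone array varies like the other group. The count of members called was 0 in all of these except when an array was left out, 0 to 3: Socs2 without WT replicate 1, and Socs1, Pim2 and Osm without WT replicate 2. That of other pathway genes was then 0 to 7, and the count of members with a lower mean was 3 to 9. The signs of Stat5a, Cish, Socs2 and Pim2 held under all 11 alternatives. With an array left out, the others ranged from -0.11 to 0.17 (Stat5b), -0.62 to 0.30 (Socs1), -0.43 to 0.23 (Socs3), -0.24 to 0.014 (Pim1), -0.56 to 0.46 (Osm) and -0.073 to 0.13 (Bcl2l1), and no other alternative turned a member. The expression filter, array weights and the replicate block left the differences of all members unchanged, so no sign could turn there. Other probe sets left those of members with 1 set unchanged. Stat5a, though never reversed, was 0.0027 without WT replicate 1. Deviations of same-numbered arrays correlated at -0.0072 over all genes. Such a correlation cannot show whether the replicate numbers pair the samples, since a part of the genes may still shift together. With the replicate number as a block, 47 genes were called and 0 members. In that fit the prior degrees of freedom were infinite, so limma gave every gene the same variance. Genes were then ordered by the size of their difference alone. The cause of that count was not tested.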
